A study of Mus musculus with 12 samples.

Results

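The regions described here are the R-loop peaks of mouse chromosome 15, all intervals that 2 deposited peak lists place on that chromosome. They number 4306 of 43625 peaks: 2072 of the 28717 peaks of the HEPA1-6 list, from a hepatoma line of the mouse, and 2234 of the 14908 peaks of the list labelled mouse liver. The chromosome was chosen by its number of peaks in these lists, so its peak number and density are given as a description, with no test. The study made 12 genomic libraries, in 6 groups of 2: immunoprecipitate with the S9.6 antibody, such an immunoprecipitate after RNase H1, and input. Each of these was made from HEPA1-6 cells in culture and from liver of C57/Bl6 mice, both wild type (WT) and untreated, and the labels give no age for the mice. Per the peak names, each list comes from a merged immunoprecipitate set against an input. With 1 list per source no difference below has a replicate check, and values of the RNase H1 libraries were not used here. The lists come from bulk samples, in which fewer cells with an R-loop and fewer R-loops per cell cannot be told apart.

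An R-loop forms when RNA hybridises with its DNA template and leaves the opposite DNA strand unpaired. R-loops arise on transcribed genes, often near promoters and transcript ends, and G-rich transcripts favour them. S9.6 binds RNA-DNA hybrids, and the enzyme RNase H1, which removes RNA from such hybrids, is the usual specificity control.

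The second list is called liver-labelled, since its source is known here from the label alone. On chromosome 15 this list held peaks at genes of the cell cycle more often than at genes typical of liver. In that list, 16 of 18 cell cycle and replication genes overlapped a peak with a strand (88.9%, 95% Wilson interval 67.2 to 96.9%), and 12 of 24 liver genes did (50%, interval 31.4 to 68.6%), beside 52.8% of all protein-coding genes of the chromosome. The liver genes were thus covered about as often as other genes, and the 2 intervals overlap. In HEPA1-6 the counts were 17 of 18 and 9 of 24. Cell cycle genes were not particular in this. The liver-labelled list also had a stranded peak at 91.7% of 24 translation and housekeeping genes and 92% of 25 chromatin and transcription regulators. The contrast therefore does not test the label. In the liver-labelled list the 24 liver genes held 32 peaks with a strand, led by Lifr with 13, while 10 of them, such as the growth hormone receptor gene Ghr, held none in either list. Intervals of this kind reflect counting error alone, and peaks close to each other on the chromosome are not independent.

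Promoter sequences of 6 genes that lead these results are shown first, because a peak of both lists covered all 200 bases of each. They run 5′ to 3′ on the gene's strand, from 170 bases before the annotated start to 30 bases after it, from RefSeq, GRCm38.p6. Capitals mark runs of 3 or more G (GGG). In windows of this length, GGG occurred in 92.1% of 936 promoters of chromosome 15 and in 91.6% of 31396 promoters of chromosomes 1 to 19, and CCC, the same run on the other strand, in 92.8% and 90.7%. The longer run GGGG is contained in some of them.
Trio, chr15:28025819-28026018, minus strand: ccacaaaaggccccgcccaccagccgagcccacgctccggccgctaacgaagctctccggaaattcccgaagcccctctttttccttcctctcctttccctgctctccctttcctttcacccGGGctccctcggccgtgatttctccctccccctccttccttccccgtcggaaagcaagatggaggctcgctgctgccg
Myo10, chr15:25622380-25622579, plus strand: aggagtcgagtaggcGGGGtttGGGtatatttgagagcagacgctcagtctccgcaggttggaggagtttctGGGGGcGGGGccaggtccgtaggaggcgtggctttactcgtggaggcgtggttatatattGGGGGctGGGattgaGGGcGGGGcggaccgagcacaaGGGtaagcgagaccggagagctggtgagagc
Ano6, chr15:95790673-95790872, plus strand: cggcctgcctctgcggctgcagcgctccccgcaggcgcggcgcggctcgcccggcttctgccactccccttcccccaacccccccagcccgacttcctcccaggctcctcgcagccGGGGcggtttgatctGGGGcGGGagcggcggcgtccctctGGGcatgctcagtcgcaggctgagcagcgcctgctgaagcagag
Atf4, chr15:80255014-80255213, plus strand: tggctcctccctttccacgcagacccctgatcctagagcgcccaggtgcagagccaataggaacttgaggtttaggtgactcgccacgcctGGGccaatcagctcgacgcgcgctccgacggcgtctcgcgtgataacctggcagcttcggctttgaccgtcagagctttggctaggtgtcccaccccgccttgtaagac
Rps19bp1, chr15:80264277-80264476, minus strand: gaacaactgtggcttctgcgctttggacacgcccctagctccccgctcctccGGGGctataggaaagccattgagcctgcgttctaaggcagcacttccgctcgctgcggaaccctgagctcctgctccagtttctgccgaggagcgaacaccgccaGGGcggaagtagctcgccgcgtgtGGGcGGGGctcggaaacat
Eif4b, chr15:102073603-102073802, plus strand: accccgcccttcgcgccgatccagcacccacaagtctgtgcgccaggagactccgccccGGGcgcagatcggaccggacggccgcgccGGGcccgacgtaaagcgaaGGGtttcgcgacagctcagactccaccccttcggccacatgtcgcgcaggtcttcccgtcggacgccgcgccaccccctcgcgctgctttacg

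The GC content of these 6 windows was 61.5 to 74.5%. The Myo10 window held 9 runs of GGG and more G than C, with a GC skew, (G − C)/(G + C), of 0.463. Runs of this number, 9 or more, occurred in 9.62% of the chromosome 15 promoters. The Trio window held 1 run and had a skew of -0.417, so its gene strand was rich in C. Both promoters lay in peaks of the gene's own strand in both lists. The peak over the Trio window had a HEPA1-6 score of 103 and a liver-labelled score of 74, and the one over the Myo10 window 156 and 100. The score is the whole number of 10 or more that the authors gave each peak. Its scale is not stated, so scores are read only within a list.

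The lists assign a strand to most peaks and none to the rest. The rule for this is not stated, and the strand may have been taken from gene annotation. On chromosome 15, 154 of 2072 HEPA1-6 peaks had no strand (7.43%, interval 6.38 to 8.64%), against 4.1% of the whole list. In the liver-labelled list 501 of 2234 had none (22.4%, interval 20.7 to 24.2%), against 15.3% of the whole list. Chromosome 14 had a nearly equal share in the liver-labelled list, 22.5%. The X chromosome had higher shares, 79.9% in the liver-labelled list and 25.7% in HEPA1-6. Per length, chromosome 15 had the most strandless peaks of the 19 autosomes in both lists. It held 4.97 strandless peaks per Mb in the liver-labelled list, where the other 18 autosomes reached at most 1.21. In HEPA1-6 it held 1.53, where the others reached at most 0.704. The X chromosome held 2.52 per Mb in the liver-labelled list and 0.503 in HEPA1-6. For stranded peaks, chromosome 15 ranked 1 of 19 in the liver-labelled list with 17.2 per Mb and 3 of 19 in HEPA1-6 with 19.02 per Mb.

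The number of liver-labelled peaks per HEPA1-6 peak was higher on chromosome 15 than on any other autosome. Chromosome 15 held 1.08 liver-labelled peaks for each HEPA1-6 peak, and the other autosomes 0.363 to 0.570. For stranded peaks the ratio was 0.904, against 0.322 to 0.543 on the other autosomes, and for strandless peaks it was 3.25, against 0.646 to 2.67. The X chromosome had a higher ratio than chromosome 15, with 538 liver-labelled and 335 HEPA1-6 peaks. Its strandless ratio was also higher (430 and 86 peaks), and its stranded ratio lower (108 and 249 peaks). The depth of the libraries is unknown, so each ratio is read only beside those of the other chromosomes.

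The chromosome was divided at 70, 90 and 100 Mb. Segment 1 runs from the first annotated gene to 70 Mb, segment 2 to 90 Mb, segment 3 to 100 Mb and segment 4 to the last annotated gene at 103.9 Mb. Stranded HEPA1-6 peaks numbered 982, 561, 277 and 98 in segments 1 to 4, and stranded liver-labelled peaks 1079, 295, 303 and 56. The liver-labelled list therefore held about as many stranded peaks as HEPA1-6 in segments 1 and 3, with ratios of 1.099 and 1.094, and fewer in segments 2 and 4, with ratios of 0.526 and 0.571. The other autosomes together had a ratio of 0.425. Segment 2, though low for this chromosome, still lay above that value, and within the range of single autosomes.

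Strandless peaks differed between these segments more sharply. The segments were chosen with earlier results of these data known, so differences between them are a description. The liver-labelled list had 419 of them in segment 1, 12 in segment 2, 69 in segment 3 and 1 in segment 4. HEPA1-6 had 127, 12, 11 and 4. Per Mb, the liver-labelled list thus went from 6.26 in segment 1 to 0.6 in segment 2 and 6.9 in segment 3, where the other autosomes had 0.558. In windows of 5 Mb, segment 1 held 5 to 42 strandless liver-labelled peaks with a median of 34, and segment 2 held 1 to 4. The window before 70 Mb held 36 and the window after it 3, and by single Mb the number went from 7 to 1 at 70 Mb. The division at 90 Mb did not mark such a change: the single Mb from 90 to 94 Mb held 0, 1, 3 and 8.

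Segment 3 was not uniform. A division at 98 Mb, chosen after the values were seen, gave 68 strandless liver-labelled peaks from 90 to 98 Mb and 1 from 98 to 100 Mb. HEPA1-6 had 8 and 3. Stranded peaks numbered 190 against 147 (liver-labelled against HEPA1-6) up to 98 Mb, and 113 against 130 beyond it. By single Mb, strandless liver-labelled peaks numbered 22 from 95 to 96 Mb, 28 from 96 to 97, 4 from 97 to 98 and 1 from 98 to 99. The drop thus lay at 97 Mb, before the division. From 97 to 98 Mb HEPA1-6 also had 4, and each list had 19 stranded peaks.

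**Figure D1:**
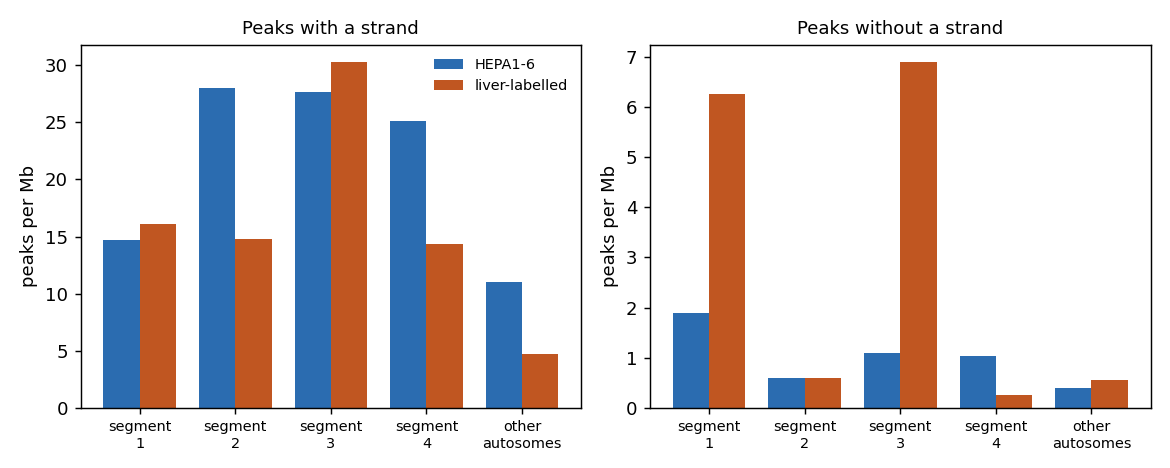
Peaks per Mb (vertical axis) with a strand (left) and without (right) in the 4 segments of chromosome 15 and over the other autosomes, for the HEPA1-6 list and the liver-labelled list; each bar is 1 list. The liver-labelled bars for strandless peaks stand at 6.26 and 6.9 per Mb in segments 1 and 3 and at 0.6 and 0.256 in segments 2 and 4.

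Strandless peaks had lower scores than stranded ones, were narrower and mostly lay outside genes. Their median score in the liver-labelled list was 18, against 21 for stranded peaks of the chromosome, and their median width 714 bp against 911 bp. Strandless peaks of the other autosomes had medians of 19 and 569 bp in this list. In HEPA1-6 the medians were 16 against 22 and 636 against 1259.5 bp. Of the 501 strandless liver-labelled peaks, 40 overlapped an annotated gene (7.98%, interval 5.92 to 10.7%), against 11.7% on the other autosomes (interval 10.03 to 13.5%). In HEPA1-6 it was 9.09%, against 20.04% elsewhere. In the liver-labelled list, the median distance from a strandless peak to the nearest protein-coding or lncRNA gene was 43.0 kb. In segment 1, 171 of 419 (40.8%) lay over 100 kb from such a gene. In segment 3 the median distance was 13.3 kb.

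A few strandless peaks were high. The highest peak of chromosome 15 in the liver-labelled list was strandless, at chr15:75085506-75086934 in segment 2, with a score of 491. The HEPA1-6 list held a strandless peak of score 230 inside it, the highest of its kind there. It overlaps no annotated gene, and Gm52219 is the nearest. Another strandless peak had the same ends in both lists, chr15:96709351-96710801, with scores of 75 (HEPA1-6) and 79 (liver-labelled), and its nearest gene is Slc38a2, which codes for an amino acid transporter. The remaining leaders were a HEPA1-6 peak of score 122, 7.69 kb from Gm15569, and a liver-labelled peak of score 82, for which the nearest gene, Gm46517, lies 1005 kb away.

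Most stranded peaks lay in genes. Over both strand classes, 88.8% of HEPA1-6 peaks overlapped an annotated gene (1839 of 2072; 91.2% in the whole list), and 71.7% of liver-labelled peaks did (1602 of 2234; 78.6% in the whole list). Among stranded peaks alone the shares were 95.2% and 90.1%, and on the other autosomes 94.2% and 91.1%. Where a stranded peak overlapped 1 gene of known strand, the strands were mostly the same. They were so in 786 of 842 HEPA1-6 peaks (93.3%) and 596 of 654 liver-labelled peaks (91.1%). On the other autosomes the shares were close to these, 93.4% and 90.6%. If the strand was taken from gene annotation, this agreement and the place of stranded peaks in genes were fixed in advance. They are therefore not read as a measured orientation of R-loops.

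To ask which genes carry the stranded excess, the stranded peaks of each gene were set against the mean of genes of like length (20 length classes) on the other 18 autosomes. The difference is called the excess of that gene. The 1308 protein-coding and lncRNA genes of chromosome 15 held 2027 stranded HEPA1-6 overlaps, where that rate gives 1145, a ratio of 1.77. In the liver-labelled list they held 1705, where the rate gives 485, a ratio of 3.52. Other autosomes reached at most 1.61 (chromosome 11) and 1.84 (chromosome 19). By segment, HEPA1-6 ratios were 1.91, 1.66, 1.97 and 1.13, and liver-labelled ratios 4.94, 1.95, 4.56 and 1.27. This gene-based ratio was thus highest in segments 1 and 3 in both lists, and the segments stood further apart in the liver-labelled list. Stranded peaks per Mb gave another order. Relative to the other autosomes, HEPA1-6 density was 1.33, 2.55, 2.51 and 2.28 times in segments 1 to 4, lowest in segment 1. Liver-labelled density was 3.45, 3.15, 6.48 and 3.07 times, so segment 1 lay close to segments 2 and 4.

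**Figure D2:**
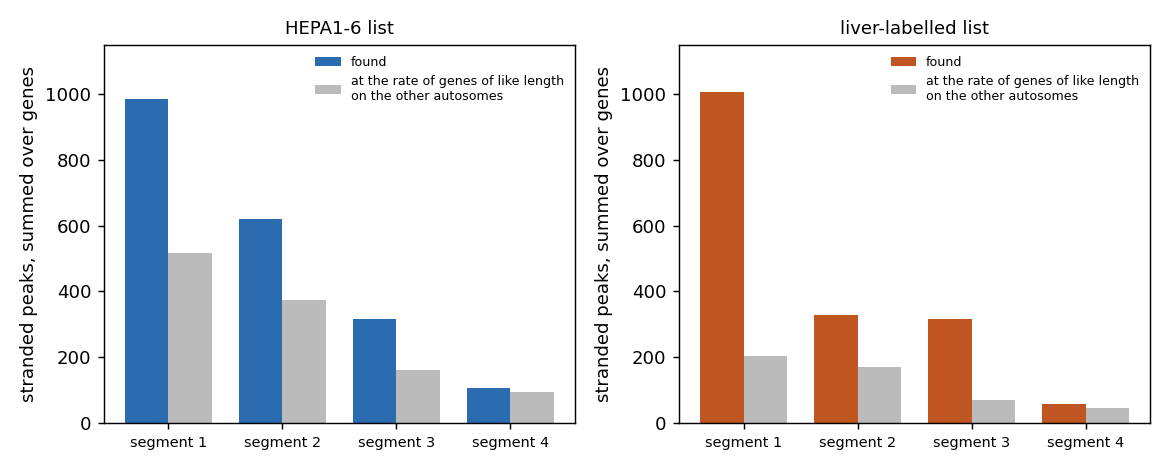
Stranded peaks summed over protein-coding and lncRNA genes (vertical axis) in each segment, found (coloured) and at the rate of genes of like length on the other autosomes (grey), for HEPA1-6 (left) and the liver-labelled list (right). In segment 1 the HEPA1-6 list held 986 against 517 and the liver-labelled list 1006 against 204.

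The excess was spread over many genes. In HEPA1-6, 463 genes stood above the length-matched rate (35.4% of 1308; 26% over chromosomes 1 to 19), and in the liver-labelled list 506 did (38.7%; 20.8% over chromosomes 1 to 19). These counts differ in meaning: the liver-labelled rate stayed below 1 in every length class, so that 1 peak put a gene above it, while long genes needed 3 in HEPA1-6. The 12 leading genes of each list carried 23.4% (HEPA1-6) and 23.2% (liver-labelled) of the summed excess of those genes, and the leading 50 carried 50.4% and 47.7%. A stranded peak overlapped 428 of 774 protein-coding genes in HEPA1-6 (55.3%; 42.1% over chromosomes 1 to 19) and 409 in the liver-labelled list (52.8%; 29.1% over chromosomes 1 to 19). In segment 1 the liver-labelled share was 162 of 224 genes (72.3%, interval 66.1 to 77.8%).

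9 genes were among the leading 12 of both lists. Trio, which codes for a guanine nucleotide exchange factor, held the most stranded peaks: 51 in HEPA1-6 against 49 in the liver-labelled list over 295 kb (chr15:27730649-28025848). 45 of the 49 overlapped a HEPA1-6 peak, and peaks covered 42.9% of the gene in HEPA1-6 and 30.4% in the other list. All but 1 peak in each list were on the minus strand, the strand of the gene.

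Pvt1, a lncRNA gene beside Myc, held 41 and 42 stranded peaks (chr15:62037986-62260215), all on the plus strand. Of the 42, 40 overlapped a HEPA1-6 peak. Myc itself, which codes for a transcription factor of growth and proliferation, held 1 peak in each list, with scores of 118 and 58. Myo10, the gene of an unconventional myosin of filopodia, held 36 peaks in each list, all on the plus strand, and every liver-labelled one overlapped a HEPA1-6 peak. Coverage of its body was 67.7% by HEPA1-6 peaks and 49.99% by liver-labelled ones.

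Asap1, which codes for an Arf GTPase-activating protein, held 47 peaks in HEPA1-6 against 37 in the liver-labelled list. Ano6 in segment 3, the gene of a phospholipid scramblase, held 37 and 31. There the liver-labelled peaks covered more of the gene, 68.0% against 44.9%. The Ano6 promoter shown above lay in a plus-strand peak of score 90 in HEPA1-6 and in a minus-strand peak of score 70 in the liver-labelled list. Ext1, which codes for a heparan sulphate polymerase, held 26 and 30, and 15 of its 30 liver-labelled peaks had no HEPA1-6 partner.

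The remaining shared leaders were Mtss1, a membrane and actin regulator, with 26 peaks in each list, Vps13b, a lipid transfer protein of the Golgi, with 28 and 21, and Oxr1, an oxidation resistance gene, with 23 and 20. Vps13b was thinly covered, at 4.89% and 2.54% of its 560 kb. In HEPA1-6 the list of 12 was completed by Rai14 (24 stranded HEPA1-6 peaks and 17 liver-labelled ones), Sntb1 (22 and 16) and Nsmce2 (22 and 15). In the liver-labelled list it was completed by Arid2 (18 HEPA1-6 peaks and 21 liver-labelled ones), Cyrib (22 and 20) and Gm38469 (3 and 18). The longest class holds genes of very different length, so the rate was also taken per kb of gene body. The HEPA1-6 excess of Vps13b was then 14.99 in place of 25.8 and that of Oxr1 13.4 in place of 20.8, and both left the leading 12 of HEPA1-6, where Cyrib and Pacsin2 entered. With only peaks at or above the median score of their list, the HEPA1-6 excess of Sntb1 was 3.16 in place of 19.8 and that of Vps13b 7.16. Trio, Pvt1, Asap1, Myo10, Ano6, Ext1 and Mtss1, 7 genes, were among the leading 12 of both lists under each of these settings and by the midpoint of the peak. The edge of each list was narrow: Nsmce2 stood at an excess of 19.8 and the next gene, Cyrib, at 19.6 in HEPA1-6, while Gm38469 stood at 17.3 and Rai14 at 16.3 in the liver-labelled list.

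**Figure D3:**
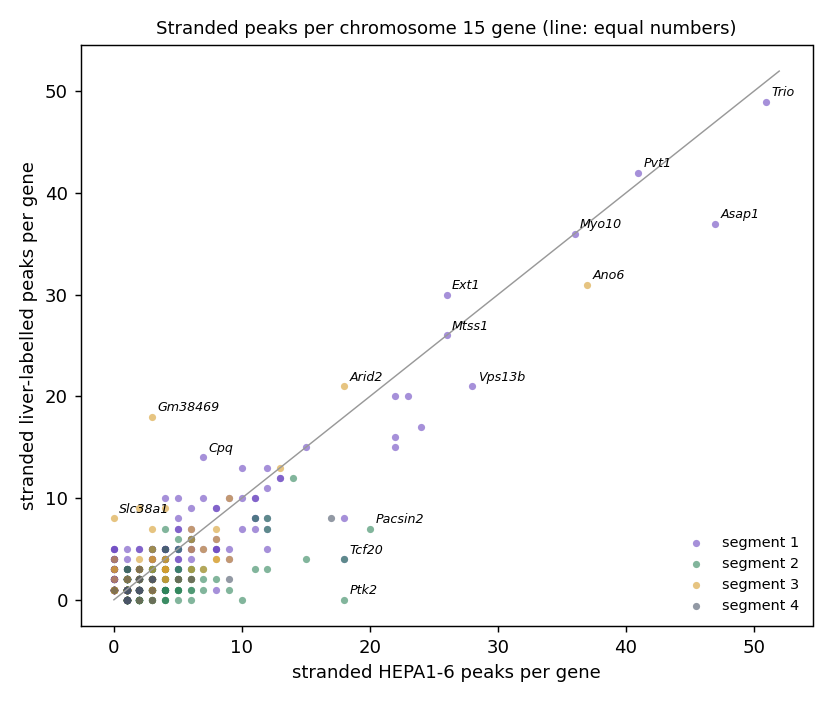
Stranded HEPA1-6 peaks (horizontal axis) and stranded liver-labelled peaks (vertical axis) per protein-coding or lncRNA gene of chromosome 15 with a peak in either list; each point is a gene, coloured by segment, and the line marks equal numbers. Trio stands at 51 and 49, Gm38469 lies above the line at 3 and 18, and Ptk2 lies on the horizontal axis at 18 and 0.

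Genes with more stranded peaks in the liver-labelled list than in HEPA1-6 were frequent on chromosome 15. Of 604 genes with a stranded peak in either list, 183 had more in the liver-labelled list (30.3%, interval 26.8 to 34.1%; 11.7% over chromosomes 1 to 19) and 267 had fewer (44.2%; 65.5% over chromosomes 1 to 19). In segment 1, 111 of 227 had more (48.9%), and in segment 2, 34 of 224 (15.2%).

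The largest difference toward the liver-labelled list was at Gm38469, next to Arid2, where 3 HEPA1-6 peaks stood against 18 liver-labelled ones. The 18 peaks were all on the minus strand, and 15 of them had no HEPA1-6 partner. One of the others, 16294 bp wide with a score of 110, spans the boundary with Arid2, where HEPA1-6 had a plus-strand peak of 16243 bp and score 132. Slc38a1, a glutamine transporter gene, had 8 liver-labelled peaks with scores of 13 to 29 and none in HEPA1-6. Cpq, a secreted peptidase gene, had 7 in HEPA1-6 against 14 in the liver-labelled list, Nell2, which codes for a secreted protein of neurons, 2 and 9, and Fam91a1, a Golgi trafficking gene, 4 and 10. Gm38469, Slc38a1 and Nell2 lie between 95 and 97 Mb, and Cpq and Fam91a1 in segment 1.

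Of the 5 genes with the largest difference toward HEPA1-6, 4 lie in segment 2. Ptk2, which codes for focal adhesion kinase, held 18 HEPA1-6 peaks and no liver-labelled one. The transcriptional coregulator gene Tcf20 held 18 and 4, the membrane-shaping protein gene Pacsin2 held 20 and 7, and the splicing factor gene Rbfox2 held 15 and 4. Nipbl, the gene of the cohesin loader, was the exception by position: it lies in segment 1 and held 18 and 4.

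Overlap between the lists was read in the same segments. A peak counted as shared when it overlapped a peak of the other list by at least 1 bp. On chromosome 15, 1089 HEPA1-6 peaks were shared (52.6%; 31.8% of the whole list), and 1303 liver-labelled peaks (58.3%; 75.9% of the whole list). Among stranded liver-labelled peaks, 63.5% were shared in segment 1, 97.3% in segment 2, 68.3% in segment 3 and 91.1% in segment 4, and 88.9% on the other autosomes. For stranded HEPA1-6 peaks the shares were 61.4, 35.8, 64.3 and 39.8%, and 30.2% on the other autosomes. Segments 2 and 4 thus lay near the other autosomes, or somewhat above them, and segments 1 and 3 apart from them, in opposite directions in the 2 lists. A share also depends on how many peaks the other list holds in the same segment. Segments 1 and 3 were those where the 2 lists held about as many stranded peaks, so the shares are not a result separate from those counts.

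**Figure D4:**
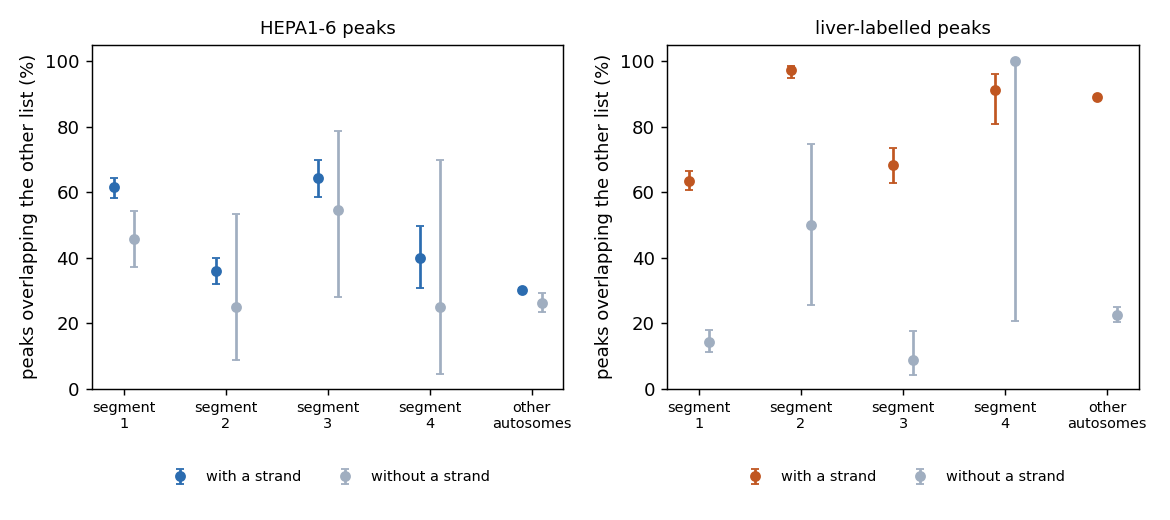
Share of peaks that overlap a peak of the other list by at least 1 bp (vertical axis, percent) in each segment of chromosome 15 and on the other autosomes, for HEPA1-6 (left) and liver-labelled peaks (right), with a strand (coloured) and without (grey); bars are 95% Wilson intervals. Stranded liver-labelled peaks stand at 63.5% in segment 1 and 97.3% in segment 2.

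Stranded peaks without a partner had lower scores. Liver-labelled stranded peaks of the chromosome had a median score of 23 with a partner and 17 without, and median widths of 1138 and 714 bp. Strandless liver-labelled peaks were shared in 14.6% of cases (73 of 501, interval 11.8 to 17.9%), against 22.5% on the other autosomes. In segment 1, 60 of 419 were. Strandless HEPA1-6 peaks differed the other way, with 68 of 154 shared (44.2%, interval 36.6 to 52.05%), against 26.1% on the other autosomes.

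Where peaks overlapped, their scores were related: over 1353 overlapping pairs, Spearman's rank correlation between the scores was 0.542. The pairs share loci and the authors' processing, so this is a description. A liver-labelled peak lay wholly inside its HEPA1-6 partner in 70.1% of pairs, against 88.9% on the other autosomes, and in segment 2 in 93.2%. Of 1277 pairs with a strand in both lists, 124 carried opposite strands (9.71%, interval 8.21 to 11.5%), against 14.6% on the other autosomes. Segment 1 had 31 of 709 (4.37%) and segment 2 had 52 of 287 (18.1%). Pairs of opposite strand were wide: the HEPA1-6 partner had a median width of 6625 bp, against 2751 bp in pairs of the same strand.

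The highest stranded peaks lay at genes known to be expressed in most tissues. The top HEPA1-6 peak of chromosome 15 was at Ywhaz, which codes for a 14-3-3 adaptor protein, with a score of 564 (chr15:36784883-36794691). The liver-labelled peak there scored 331, the second of that list on this chromosome. Stranded peaks of other autosomes reached scores of 4359 (HEPA1-6) and 3675 (liver-labelled). At Atf4, the gene of a transcription factor of the stress response, HEPA1-6 had a peak of 373 and the liver-labelled list one of 198. They start at the same base, but the HEPA1-6 peak is on the minus strand, runs on over the whole of the neighbouring Rps19bp1 promoter shown above, and is 11093 bp wide. The liver-labelled peak is on the plus strand, the strand of Atf4, and 6697 bp wide, and a separate minus-strand peak of score 20 covers the Rps19bp1 promoter. The same strand difference was found at Krt8, a keratin gene of simple epithelia, and at Myc, as their peaks in the 2 lists had opposite strands. Since the rule that gave a strand is not stated, these are differences between the strand labels of the lists. Whether the R-loops themselves differ in strand was not tested.

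Eif4b, the gene of a translation initiation factor, had peaks of 307 and 138 that start at the same base and cover its promoter. At Mtdh and the overlapping Gm41291 the scores were 298 and 183. The ribosomal protein gene Rpl8 completed the 5 highest HEPA1-6 peaks with 258. Eny2, which codes for a subunit of transcription and mRNA export complexes, completed the liver-labelled ones with 167.

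Groups of genes differed in how many members held a stranded peak. All 24 genes of translation and housekeeping did in HEPA1-6 and 22 did in the liver-labelled list, and Rpl30, which codes for a ribosomal protein, had scores of 187 and 81. Of 25 chromatin and transcription regulators, 22 and 23 held one. Among them, Klf10 scored 137 and 80, Arid2, a subunit of a chromatin remodelling complex, 132 and 110, and Ccnt1, the cyclin of a transcription elongation kinase, 108 and 47. Of the cell cycle genes, Rad21, a cohesin subunit, scored 182 and 113, Mtbp 123 and 69, and Atad2 73 and 43. Beside these groups stand the 55.3% (HEPA1-6) and 52.8% (liver-labelled) of all protein-coding genes of the chromosome.

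Of the liver genes, Krt18 had a HEPA1-6 score of 108 and a liver-labelled score of 44, Krt8 94 and 37, Agxt2 65 and 29, and the cytokine receptor gene Lifr 59 and 42. 5 liver genes held a stranded peak only in the liver-labelled list, named here after their values were seen: Selenop (score 31), Mpst (24), Ppara (21), Rida (20) and C6 (17). 2 held one only in HEPA1-6, Cyp2d22 (26) and Tst (18). Of the 1308 protein-coding and lncRNA genes of the chromosome, 604 held a stranded peak in either list. HEPA1-6 peaks lay at 524 of these genes and liver-labelled peaks at 506. Genes with a peak of a single list were thus found in both directions across the chromosome. Whether the counts of 5 and 2 differ from this was not tested. The cytochrome P450 genes Cyp2d9, Cyp2d10 and Cyp2d26 held none in either list. Of 16 genes of blood and vessel cells, 6 held one in HEPA1-6 against 4 in the liver-labelled list, led by Pdgfb, a growth factor gene, with scores of 66 and 36.

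Long neuronal genes, of which 12 of 18 lie in segment 1, stood below the length-matched rate in HEPA1-6 and above it in the liver-labelled list. Among the longest genes that rate does not follow length: Csmd3 with 1212 kb and Cdh6 with 148 kb had the same liver-labelled rate, 0.705. A rate per kb of gene body, which is higher for the longest genes, was not taken for this group. The liver-labelled direction therefore holds for the length classes alone. In HEPA1-6, 8 of 18 held a stranded peak and their 18 peaks lay below the 38.3 of the length-matched rate. In the liver-labelled list 11 of 18 held one (61.1%, beside 52.8% of all protein-coding genes of the chromosome), and their 39 peaks lay above the rate of 12.4. All genes of segment 1 stood at 4.94 times that rate in this list, so the neuronal genes were not high for their segment. Their scores were low: the presynaptic gene Rims2 led with a liver-labelled score of 45 and no HEPA1-6 peak, Csmd3 had 17 and 28, and the cadherin gene Cdh6 and the catenin gene Ctnnd2 had liver-labelled scores of 24 and 23 and no HEPA1-6 peak. In segment 4, none of the 10 genes of the Hoxc cluster held a peak in either list. Of 21 type II keratins other than Krt8, Krt78 alone held one, and its HEPA1-6 peak is that of Krt8.

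Among genes that held a stranded peak, those of chromosome 15 held more peaks inside the gene body than those elsewhere. Genes without a peak are not counted here, and gene length was not matched. An excess at gene boundaries is therefore not excluded, and promoters under a peak of both lists were also more frequent on chromosome 15, as given below. The positions were read over stranded peaks that overlap a single gene with a promoter in the RefSeq table, which covers 761 of the 1308 genes. Genes with such a peak held 0.338 peaks within 1 kb of the 5′ boundary each in the liver-labelled list and 0.356 in HEPA1-6, close to the 0.385 and 0.366 on the other autosomes. Peaks away from both boundaries numbered 2.57 per gene in the liver-labelled list and 3.50 in HEPA1-6, against 1.23 and 2.40 elsewhere. The share of peaks at the 5′ boundary was lower accordingly. It was 10.9% in the liver-labelled list (71 of 654, interval 8.70 to 13.5%), against 21.2% on the other autosomes (interval 20.2 to 22.2%). In HEPA1-6 it was 8.55% (72 of 842, interval 6.85 to 10.6%), against 12.02% (interval 11.5 to 12.5%). By segment, the liver-labelled share was 6.27% in segment 1, 20% in segment 2, 8.23% in segment 3 and 20.8% in segment 4. At the 3′ boundary the shares were 7.34% in the liver-labelled list and 8.31% in HEPA1-6, against 12.3% and 10.4% elsewhere. Peaks at the 5′ boundary were the higher ones, with median scores of 34 (liver-labelled) and 33.5 (HEPA1-6), against 20 for peaks inside genes in both lists. At the 3′ boundary the medians were 24.5 and 25.5. The other autosomes had the same order, with 27 and 29 at the 5′ boundary, 25 and 26 at the 3′ boundary, and 20 and 19 inside. Segment 1 in HEPA1-6 differed, with 42.5 over 12 peaks at the 3′ boundary and 27 over 20 peaks at the 5′ boundary.

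**Figure D5:**
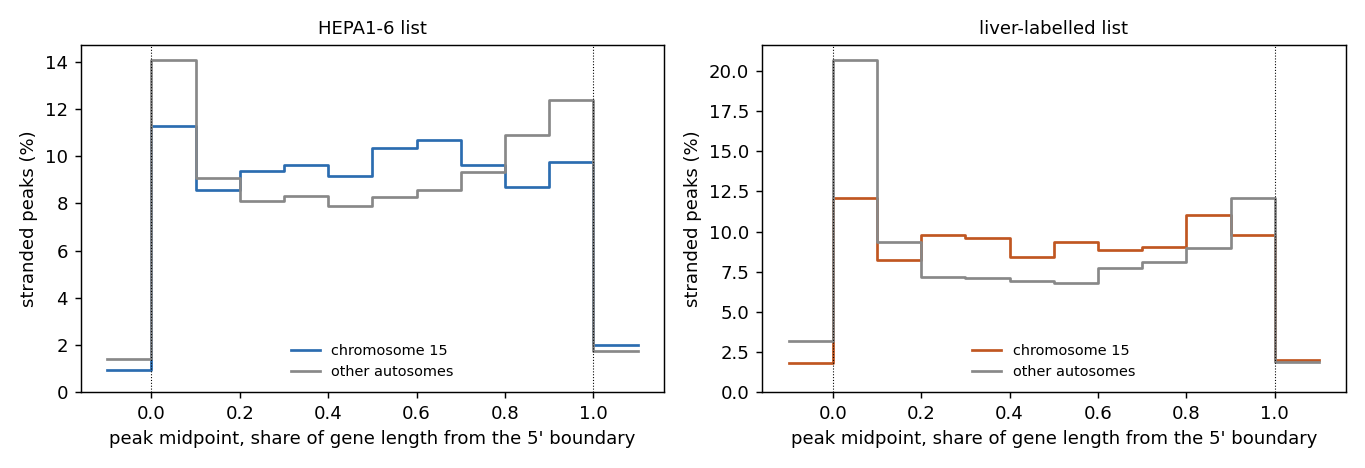
Position of the midpoint of stranded peaks along the gene (horizontal axis, share of gene length from the 5′ boundary) for HEPA1-6 (left) and the liver-labelled list (right), as percent of peaks (vertical axis) on chromosome 15 (coloured) and the other autosomes (grey); dotted lines mark the gene's boundaries. The bin from 0 to 0.1 held 12.1% of liver-labelled peaks on chromosome 15 and 20.7% on the other autosomes.

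Promoters under a peak were rich in GC and CpG. RefSeq windows from 250 bases before to 50 after the start numbered 936 on chromosome 15, and a peak of both lists overlapped 138 of them (14.7%, against 9.08% on the other autosomes). Their median GC content was 64.3%, against 51.7% in the 731 windows under no peak. The median ratio of observed to expected CpG was 0.800 against 0.312. The median GC skew was 0.0101 against 0.0122, with wide spread (quartiles -0.102 to 0.113 for windows under both lists). A run of GGGG occurred in 83.3% of the windows under both lists and in 65.9% of those under neither, and the run CCCC in 79.7% and 69.5%. These contrasts were not particular to chromosome 15. On the other autosomes the median GC content was 63.7% under both lists against 51% under neither, and the CpG ratio 0.838 against 0.315. There GGGG occurred in 82.7% against 67.1%, and CCCC in 82.0% against 64.2%. The 15 windows under a liver-labelled peak alone had a lower median GC content, 54.7%, than the 294 such windows on the other autosomes, 61.3%.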

How the data were processed

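Genomic DNA was immunoprecipitated with S9.6, sonicated and sequenced as paired-end reads, per the labels' protocols. The submitters' processing notes name the build mm10 and CASAVA 1.8.2, cutadapt, Bowtie2, SAMtools, bedtools and MACS2, with no role. How a peak got its strand and which libraries were merged are not given in the sources used here. The authors deposited 1 list of peaks per source, with a score per peak on an unstated scale. The depth of the libraries is unknown.

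Coordinates are GRCm38 (mm10), printed 1-based. Genes came from the RefSeq table of GRCm38.p6. 340 entries on unplaced or alternate sequences, or before 3 Mb of an autosome, were left out, 8 of them assigned to chromosome 15. A peak belonged to a segment by its start, and to every gene whose body it overlapped by 1 bp. Shares have 95% Wilson intervals. No test was run, since each source has 1 list.

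Genes were named by rule: the 12 with the largest excess per list, the 5 with the largest difference each way, the 5 highest peaks and pairs, the 3 highest strandless peaks, and up to 4 members of each of 8 gene lists by score. The chromosome, segments and gene lists were chosen with earlier results of these data known. Counting functions were tested on simulated data. Alternatives were the peak's midpoint, the higher-scoring part of each list, equal list lengths, other overlaps, flanks, gene sets and covered bases. Python 3.11.15, pandas 2.3.3, NumPy 2.4.6 and Matplotlib 3.10.9 were used.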

Additional observations from a re-analysis of the deposited data

How the results depend on the processing

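No paired analysis was possible because each source has 1 pooled list, and leaving out replicates could not be run for the same reason. Of 145 alternative values, 85 stayed within the interval or within 1.5 times the count, 59 moved and 1 changed sign. For the 20 main results, 22 values stayed and 33 moved. The others are the excess of single genes named for a large excess, of which 63 values stayed, 26 moved and 1 changed sign.

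With only peaks at or above the median score of their list, which leaves fewer peaks by construction, segments 1 to 4 held 552, 303, 167 and 55 HEPA1-6 peaks and 580, 154, 180 and 25 liver-labelled ones. With the HEPA1-6 list shortened to the length of the other, its segments held 590, 331, 180 and 58. In the higher-scoring part, strandless shares fell to 4.74% (HEPA1-6) and 13.6% (liver-labelled), and to 4.92% in the shortened HEPA1-6 list. The share of the liver-labelled list on chromosome 15 was 14.99%, 12.6% in its higher-scoring part and 15.6% of peaks on chromosomes 1 to 19. The HEPA1-6 share was 7.22% of peaks and 8.24% of covered bases. Protein-coding genes with a stranded peak were 47.4% (HEPA1-6) and 40.4% (liver-labelled) in the higher-scoring part, and 49.5% and 48.8% by the peak's midpoint. The total excess was 882 and 1220, and 535 and 581 in the higher-scoring part.

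With an overlap of 50% of both peaks, 29.1% of HEPA1-6 and 26.9% of liver-labelled peaks were shared. Between lists of equal length the shares were 71.0% and 47.1%, and in the higher-scoring part the liver-labelled share was 68.3%. Peaks in genes were 85.4% (HEPA1-6) and 69.0% (liver-labelled) by midpoint, and 90.3% and 73.8% with a flank of 1 kb. The sign changed for the HEPA1-6 excess of Gm38469, from 0.80 to -0.55 with a rate per kb of gene body, and the cause was not tested. The depth of the libraries limits every count and cannot be read from the lists.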
